A study of Mus musculus with 10 samples.

Results

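The gamma-delta T cell receptor of mouse skin was followed through a chosen list of 8 gamma and delta chain gene segments, matched by gene symbol among the 46078 genes of the count table, which also holds 28 other annotated gamma or delta segments. They are the gamma variable segments Tcrg-V4, Tcrg-V5 and Tcrg-V6, the gamma constant segments Tcrg-C1, Tcrg-C2 and Tcrg-C4, the delta variable segment Trdv4 and the delta constant segment Trdc. Together they held 8048 reads over 10 RNA sequencing libraries of whole back skin from specific-pathogen-free C57BL/6 mice. The 5 libraries of the SA group came from mice on whose skin Staphylococcus aureus SF8300 was spread, and the 5 of the SE group from mice given Staphylococcus epidermidis Tü3298. In both groups 100 µl of bacteria was applied every other day from day 3 to day 19 of life, and an 8 mm punch of skin, lightly defatted, was taken at 21 days of age. The comparison asks how transcripts differ between skin colonised early with one staphylococcus or the other, and skin without applied bacteria was not analysed here. Whether every library stands for its own mouse is not stated in the labels, and p-values therefore reflect only how much these libraries vary.

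A T cell receptor chain is assembled by joining a variable segment to joining and constant segments, with diversity segments as well in the delta chain. Gamma-delta T cells pair a gamma with a delta chain. In mouse skin they fall into dendritic epidermal T cells, whose invariant receptor uses Tcrg-V5 with Trdv4, and dermal cells that make interleukin-17, many of which use Tcrg-V6 with the same delta segment or Tcrg-V4. Tcrg-V4, Tcrg-V5, Tcrg-V6 and the neighbouring Tcrg-V7 rearrange to Tcrg-C1, the Trgv2 segment to Tcrg-C2, and Tcrg-V1 to Tcrg-C4. Cells of both skin populations arise from early waves of the fetal and newborn thymus.

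The germline ends of the variable segments are shown first because reads can be told apart between skin populations only by these segments. All positions are on GRCm38 and all sequences are transcript-strand GENCODE M21 sequence. Tcrg-V6 lies at chr13:19190356-19190929 and Tcrg-V5 at chr13:19192278-19192725, both on the plus strand, in the same cluster as Tcrg-V4 at chr13:19184974-19185506. Trdv4 lies on the plus strand of the delta locus at chr14:54074905-54075515. Each has 2 exons, a leader exon and the variable exon. The last 60 coding bases of each are given 5′ to 3′, with capitals from the last in-frame TGT codon, the cysteine that opens the third antigen-contact loop, to the germline end.
Tcrg-V6: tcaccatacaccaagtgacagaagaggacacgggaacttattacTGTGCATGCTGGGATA
Tcrg-V5: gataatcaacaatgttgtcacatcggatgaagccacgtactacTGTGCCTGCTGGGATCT
Tcrg-V4: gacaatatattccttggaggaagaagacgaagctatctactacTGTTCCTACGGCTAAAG
Trdv4: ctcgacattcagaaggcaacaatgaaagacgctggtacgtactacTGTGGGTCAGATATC

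Over their aligned coding bases Tcrg-V5 and Tcrg-V6 were 66.0% identical, and neither shared a stretch of 50 bases with another gene's annotated transcripts. Trdv4 shared none either, and Tcrg-V4 shared 1.86% of its stretches, with Gm31887, a gene on the other strand that covers 18.5% of its exons. Reads of Tcrg-V4 and Gm31887 cannot be told apart there, since no strand setting of the counting is given in the sources used here.

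The constant segments are shown because the first 2 of them are near copies, which limits how their reads could be assigned. Tcrg-C1 lies at chr13:19214103-19217024 on the plus strand, Tcrg-C2 at chr13:19304649-19307551 on the minus strand and Tcrg-C4 at chr13:19344558-19352756 on the plus strand. The first 60 coding bases are given, with capitals where a base differs from Tcrg-C1.
Tcrg-C1: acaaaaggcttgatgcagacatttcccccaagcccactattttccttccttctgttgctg
Tcrg-C2: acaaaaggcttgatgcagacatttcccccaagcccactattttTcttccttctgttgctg
Tcrg-C4: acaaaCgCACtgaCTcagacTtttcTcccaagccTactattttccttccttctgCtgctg

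Tcrg-C2 differed from Tcrg-C1 at 1 of these bases and Tcrg-C4 at 10. Over the aligned coding bases the identity was 97.4% for Tcrg-C1 with Tcrg-C2 and 78.7% for Tcrg-C1 with Tcrg-C4. Of all 50-base stretches, 34.2% of those in Tcrg-C1 and 25.4% of those in Tcrg-C2 also occur in another gamma constant segment, against 0% in Tcrg-C4. The split of reads between Tcrg-C1 and Tcrg-C2 is therefore uncertain. Trdc, the only delta constant segment, lies at chr14:54142851-54148868 on the plus strand, and 7.84% of its exon bases are covered on the other strand by Trdv5 and Gm43434.

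Gene-assigned reads ranged from 21140654 to 25417851 per library, so that 1 CPM (a count scaled to library size with TMM factors) stood for 21.1 to 25.4 reads. Skin genes such as Krt5, the basal keratinocyte keratin, at 2846 ± 434 CPM in SA and 3014 ± 569 in SE (SD over 5 libraries each), matched the labelled tissue. Genes of developing thymocytes were scarce, with 20 reads of Rag1 in all SA libraries and 28 in all SE libraries. Ptcra had 22 and 26, and Rag2 and Dntt had fewer. Cd1d1, the remaining gene listed for thymus, was not scarce, at 17.2 ± 2.69 CPM in SA and 16.4 ± 4.79 in SE (SD over 5 libraries each). SE libraries 3, 4 and 5 were separated by the first principal component from the remaining 7, at 39.9, 44.0 and 56.7 against -35.1 to -9.49, and had 114 to 144 CPM of Pdk4, a starvation-responsive kinase gene, against 8.67 to 29.9. The segments, ratios and gene lists below are also given without these 3 libraries, which leaves 5 SA and 2 SE libraries.

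Skin carrying S. aureus had more receptor transcript of the delta constant segment and, by a much larger factor, of the Tcrg-V6 variable segment, while Tcrg-V5, the epidermal variable segment, differed by less than the spread between libraries. With the quasi-likelihood test of edgeR, adjusted by Benjamini-Hochberg over 16909 genes with a threshold of 0.05, Tcrg-V6 and Trdc were called higher in SA, and no member was called lower. These are 2 of the 7 members that passed the low-count filter, where 0.0591% of all tested genes were called higher and 0.0769% were called in either direction. Tcrg-V4 did not pass the filter, and Tcrg-V6 passed it through its SA libraries. Every SA library lay above every SE library for 5 of the 7, against 1.13% of all tested genes. The members, and the gene lists below, were chosen with earlier results of these data known. Their counts beside the shares of all genes are therefore descriptions and not tests. The median log2 fold change of the 7, SA minus SE, was 0.73, and that of all tested genes was -0.01. In bulk skin, more cells of a type and more transcript per cell cannot be told apart.

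**Figure D1:**
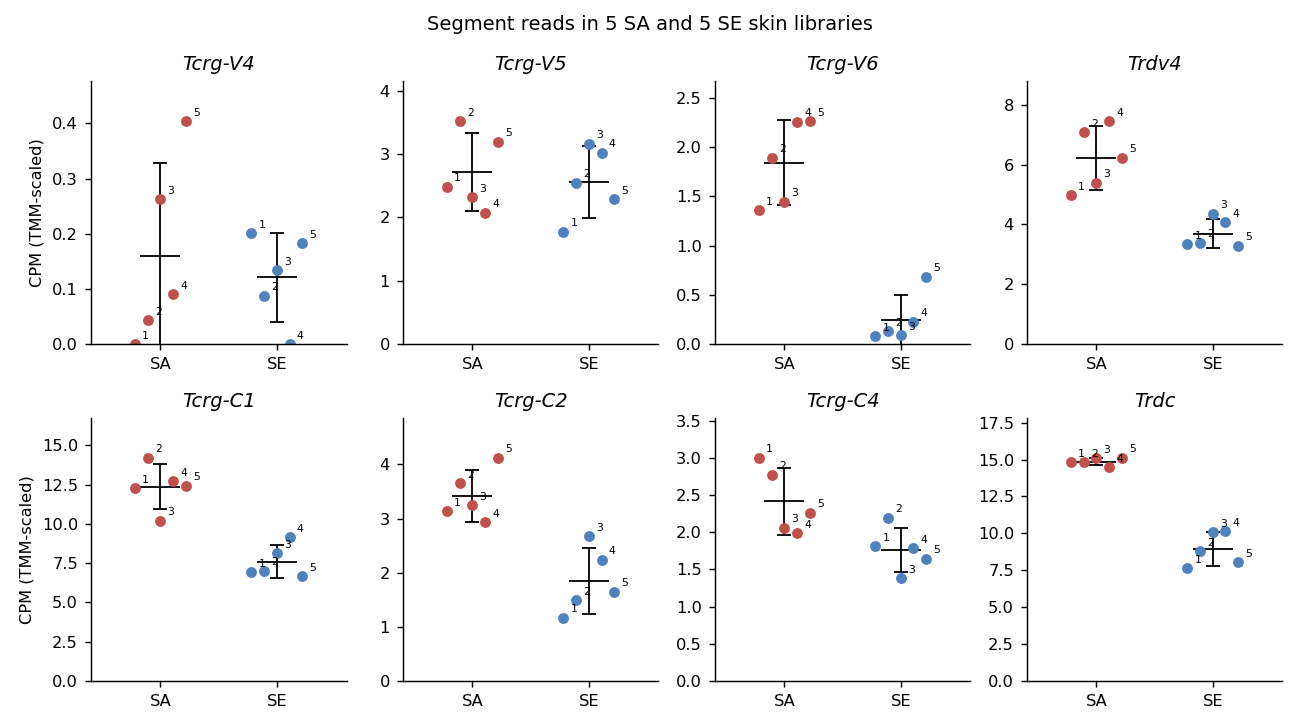
CPM of each of the 8 segments in every library, each panel on its own linear axis from 0, with points numbered by library, lines for group means and bars for the SD, cut at 0. Tcrg-V6 shows a gap between the groups, with SE library 5 as the highest SE library at 0.686 CPM, while the Tcrg-V5 points of both groups overlap.

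Tcrg-V6 had 29, 43, 33, 50 and 56 reads in SA libraries 1 to 5 and 2, 3, 2, 5 and 15 reads in SE libraries 1 to 5. The lowest SA library thus had more reads than the highest SE library, and SE library 5 held most of the SE reads. The level was 1.84 ± 0.431 CPM in SA and 0.243 ± 0.254 in SE (SD over 5 libraries each), a log2 fold change of 2.92 ± 0.455 (± standard error here and for the other log2 fold changes; edgeR adjusted p = 0.0455). Of all tested genes, 0.0177% had a larger positive log2 fold change. Without SE library 5 the log2 fold change was 3.77 (edgeR adjusted p = 0.00189), and without SE libraries 3, 4 and 5 it was 4.07 (edgeR adjusted p = 0.0094). The call was lost without any 1 of the SA libraries (edgeR adjusted p between 0.0722 and 0.145) and without SE library 3 or 4 (edgeR adjusted p = 0.132 and 0.0974), and the log2 fold change stayed at 2.72 or more in these fits.

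Tcrg-V5, which marks the epidermal population, had 53, 80, 53, 46 and 79 reads in the SA libraries and 44, 58, 71, 66 and 50 in the SE libraries. The groups overlapped over most of their ranges. Its level was 2.72 ± 0.61 CPM in SA and 2.56 ± 0.563 in SE (SD over 5 libraries each), a log2 fold change of 0.09 ± 0.206 (edgeR adjusted p = 0.881). The sign turned without SA library 2 and without SE library 1, with a log2 fold change of -0.02 in both fits, and without SE libraries 3, 4 and 5 it was 0.34 (edgeR adjusted p = 0.749).

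Tcrg-V4, used by dermal and lymph node gamma-delta T cells, was the scarcest member. It had 0, 1, 6, 2 and 10 reads in the SA libraries and 5, 2, 3, 0 and 4 in the SE libraries. The groups overlapped, at 0.16 ± 0.169 CPM in SA and 0.121 ± 0.0809 in SE (SD over 5 libraries each, two-sided exact permutation p = 0.667). A difference was not detectable at this depth.

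Trdv4, the delta variable segment that pairs with both Tcrg-V5 and Tcrg-V6 in skin, had 4.97, 7.08, 5.39, 7.45 and 6.22 CPM in the SA libraries and 3.34, 3.38, 4.36, 4.08 and 3.29 CPM in the SE libraries. All SA libraries were above all SE libraries. The log2 fold change of 0.75 ± 0.153 did not pass the threshold (edgeR adjusted p = 0.0992), and without SE libraries 3, 4 and 5 it was 0.89 (edgeR adjusted p = 0.159).

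Trdc, which belongs to every complete delta chain, had 14.8, 14.8, 15.1, 14.5 and 15.1 CPM in the SA libraries and 7.66, 8.79, 10.1, 10.2 and 8.04 CPM in the SE libraries. SA libraries lay close together and all above the highest SE library. The level was 14.9 ± 0.251 CPM in SA and 8.94 ± 1.14 in SE (SD over 5 libraries each), a log2 fold change of 0.73 ± 0.102 (edgeR adjusted p = 0.022). Without SE libraries 3, 4 and 5 it was 0.86 (edgeR adjusted p = 0.0195). The call was lost without any 1 of the SA libraries (edgeR adjusted p between 0.0654 and 0.105) and without SE library 5 (edgeR adjusted p = 0.0621), at log2 fold changes of 0.70 or more.

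Tcrg-C1, the constant segment joined by Tcrg-V4, Tcrg-V5 and Tcrg-V6, had 12.3, 14.2, 10.2, 12.7 and 12.5 CPM in the SA libraries and 6.93, 7.03, 8.15, 9.16 and 6.67 CPM in the SE libraries. The groups did not overlap, and the log2 fold change was 0.71 ± 0.125 (edgeR adjusted p = 0.0726). It passed the threshold without SE library 1 (edgeR adjusted p = 0.0395) or SE library 2 (edgeR adjusted p = 0.0484). Without SE libraries 3, 4 and 5 the log2 fold change was 0.83 (edgeR adjusted p = 0.0681).

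Tcrg-C2 had 3.14, 3.65, 3.24, 2.93 and 4.12 CPM in the SA libraries and 1.17, 1.49, 2.67, 2.24 and 1.65 CPM in the SE libraries. These groups did not overlap either, with SE libraries 3 and 4 nearest to the SA range, and the log2 fold change was 0.89 ± 0.22 (edgeR adjusted p = 0.167). Without SE libraries 3, 4 and 5 it was 1.37 (edgeR adjusted p = 0.0585). Tcrg-C4 had 3.00, 2.77, 2.06, 1.99 and 2.26 CPM in the SA libraries and 1.81, 2.20, 1.38, 1.79 and 1.65 CPM in the SE libraries, with overlap. Its log2 fold change was 0.45 ± 0.183 (edgeR adjusted p = 0.406), and 0.27 without SE libraries 3, 4 and 5 (edgeR adjusted p = 0.786). All gamma constant segments were also summed, so that the split of counted reads between near-identical copies does not matter. Reads without a unique alignment are still missing from the sum. The summed level was 18.2 ± 1.86 CPM in SA and 11.2 ± 1.44 in SE (SD over 5 libraries each). The log2 ratio of these means was 0.70, close to that of Trdc.

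**Figure D2:**
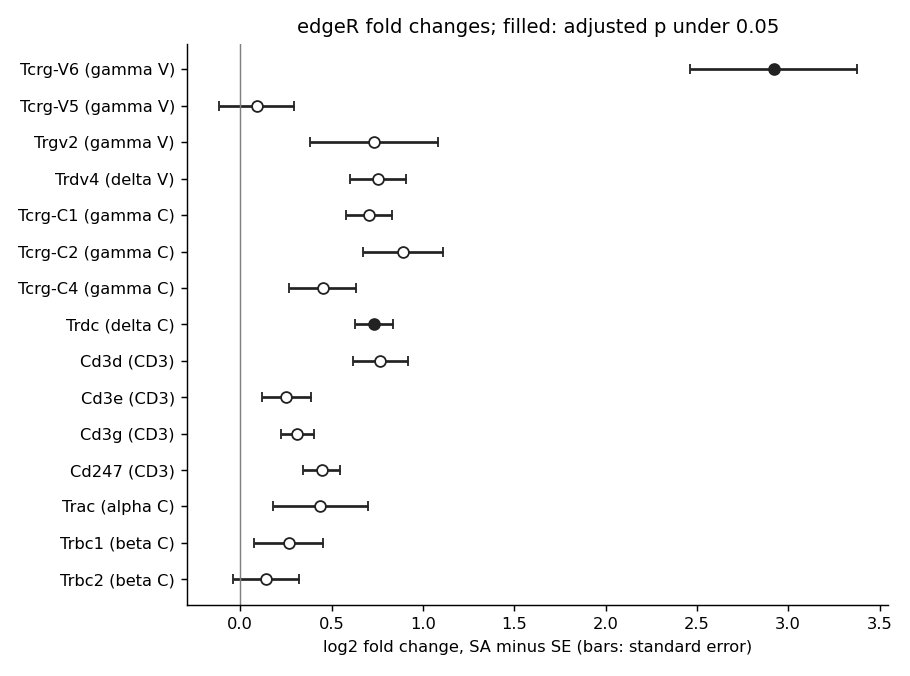
Log2 fold changes, SA minus SE, of the 7 tested segments, Trgv2, the CD3 chains and the alpha and beta constant segments, with standard errors as bars and filled points where the edgeR adjusted p is under 0.05. Tcrg-V6 lies at 2.92, Tcrg-V5 at 0.09 and the other 5 tested segments between 0.45 and 0.89.

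The count of called members depended on the test. DESeq2 called 5 of the 8 higher in SA, where it called 0.712% of all genes higher, adding Tcrg-C1 (DESeq2 adjusted p = 5.56e-05), Tcrg-C2 (0.0118) and Trdv4 (0.00125) to Tcrg-V6 and Trdc. By the adjusted p of the authors' deposited table, 5 members were also under 0.05, against 0.638% of its genes called higher in SA. These were again Tcrg-V6 (6.7e-07 in the authors' deposited table), Trdc (1.02e-08), Tcrg-C1 (5.28e-05), Trdv4 (0.0013) and Tcrg-C2 (0.015). The authors' deposited table gave log2 fold changes nearer 0 for low-count segments, 1.06 for Tcrg-V6 beside a log2 ratio of 2.93 between its own group means.

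Per length of exon, the order of levels differed between groups mainly in the place of Tcrg-V6. These values depend on the annotated exon length, 3865 bases for Trdc and from 341 for Tcrg-V5 to 985 for Tcrg-C4 in the other members. The place of Trdc is therefore no measure of delta chains against the other segments. In SA skin the order in CPM per kb of exon was Trdv4 at 14.0, Tcrg-C1 at 13.4, Tcrg-V5 at 7.97, Tcrg-V6 at 4.35, Trdc at 3.85, Tcrg-C2 at 3.74, Tcrg-C4 at 2.45 and Tcrg-V4 at 0.376. The ranges over libraries overlapped between Trdv4 and Tcrg-C1, between Tcrg-V6 and Trdc and between Trdc and Tcrg-C2, so these neighbours have no clear order. In SE skin Trdv4 at 8.31, Tcrg-C1 at 8.21 and Tcrg-V5 at 7.50 led with overlapping ranges, followed by Trdc at 2.31, Tcrg-C2 at 2.02, Tcrg-C4 at 1.79, Tcrg-V6 at 0.574 and Tcrg-V4 at 0.284. There the one gap without overlap between neighbours was that between Tcrg-V5 and Trdc.

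**Figure D3:**
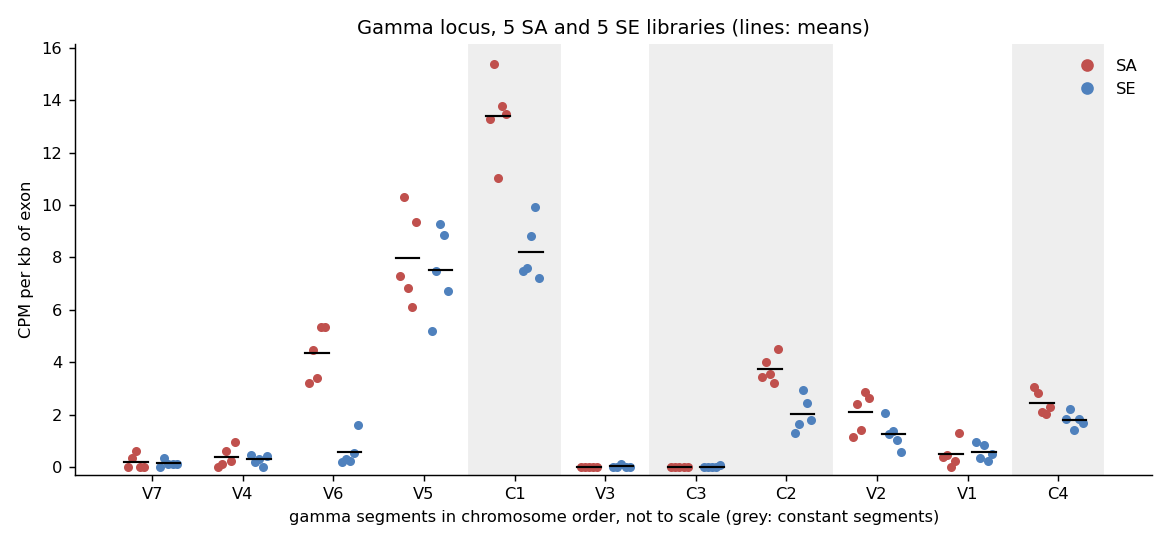
CPM per kb of exon for the variable and constant segments of the gamma locus in chromosome order, one point per library, with lines for group means. V2 and V1 are Trgv2 and Tcrg-V1, and V6 is the variable segment whose SA points all lie above its SE points.

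Counted against other receptor segments in the same library, Tcrg-V6 took a larger part in SA skin. Of the reads of Tcrg-V5 and Tcrg-V6 together, Tcrg-V6 took 35.4%, 35.0%, 38.4%, 52.1% and 41.5% in SA libraries 1 to 5. In SE libraries 1 to 5 it took 4.35%, 4.92%, 2.74%, 7.04% and 23.1%. Every SA share lay above every SE share, and SE library 5 was nearest to the SA range. The share was 40.5% ± 7.01 in SA and 8.43% ± 8.33 in SE (SD over 5 libraries each). Over the summed reads it was 211 of 522 in SA (40.4%, exact Clopper-Pearson 95% interval 36.2% to 44.8%) and 27 of 316 in SE (8.54%, interval 5.71% to 12.2%). The interval of SE library 5 alone ran from 13.5% to 35.2%. Intervals cover counting error only. They treat each read as an independent draw, which is not assured without stated molecular identifiers, and they leave out variation between libraries.

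**Figure D4:**
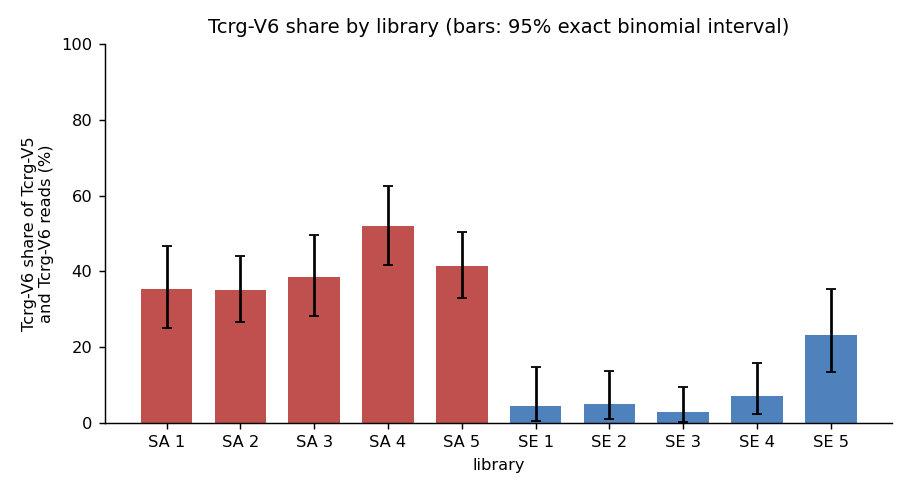
Bars give the share of Tcrg-V6 among reads of Tcrg-V5 and Tcrg-V6 in each library, and lines the exact 95% binomial intervals. The 5 SA libraries lie between 35.0% and 52.1%, and the SE libraries between 2.74% and 23.1%.

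Ratios between segments within a library, which need no scaling between libraries, were compared with a two-sided exact permutation test that used all 252 splits, with 0.5 reads added to each count and p-values adjusted over 10 ratios. The smallest p this design can give is 0.00794. The ratio of Tcrg-V6 to Tcrg-V5 was 8.64-fold higher in SA (log2 difference 3.11, exact permutation p = 0.00794, adjusted p = 0.0265). That of Tcrg-V6 to Trdc was 5.50-fold higher (log2 difference 2.46, exact permutation p = 0.00794, adjusted p = 0.0265), again with all SA libraries above all SE libraries. Relative to Trdc, Tcrg-V5 was lower in SA, by a log2 difference of -0.65 (exact permutation p = 0.0159, adjusted p = 0.0397), with overlapping ranges.

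Trdv4 stood in nearly the same mean ratio to Trdc in both groups, with a log2 difference of 0.00 in their ratio (exact permutation p = 0.992). The ratio of Tcrg-C2 to Tcrg-C1 differed by 0.23 (exact permutation p = 0.238, adjusted p = 0.34) and that of Tcrg-C4 to Tcrg-C1 by -0.26 (exact permutation p = 0.198, adjusted p = 0.331) on the log2 scale. Both had overlapping ranges. Tcrg-V6 to Tcrg-V4, the ratio of the 2 dermal variable segments, differed by 3.15 on few reads and missed the threshold (exact permutation p = 0.0317, adjusted p = 0.0635). Tcrg-V4 to Tcrg-V5 differed by -0.04 (exact permutation p = 0.992).

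Against other T cell transcripts, Trdc was 1.39-fold higher relative to Cd3e, a CD3 chain shared by all T cells (log2 difference 0.48, exact permutation p = 0.00794, adjusted p = 0.0265). This depends on the CD3 chain chosen. The edgeR log2 fold change was 0.25 for Cd3e, 0.31 for Cd3g, 0.45 for Cd247 and 0.77 for Cd3d, beside 0.73 for Trdc. Ratios of Trdc to Cd3g, Cd247 and Cd3d were not tested. Relative to Trac, the constant segment of the alpha chain, the log2 difference of Trdc was 0.33 and the ranges overlapped (exact permutation p = 0.325, adjusted p = 0.407). No ratio passed the adjusted threshold without SA library 1, 3, 4 or 5, without SE library 2, 3 or 5, or without SE libraries 3, 4 and 5 together, and 4 passed without SA library 2 or SE library 1 or 4. With single libraries left out the log2 difference of Tcrg-V6 to Tcrg-V5 stayed between 2.82 and 3.60, and without SE libraries 3, 4 and 5 it was 3.55.

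**Figure D5:**
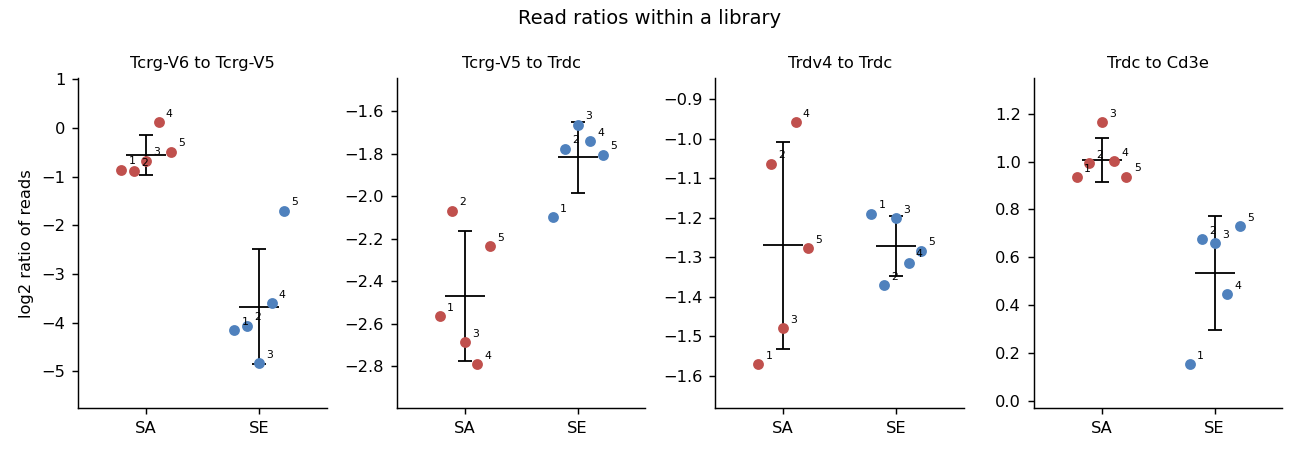
Log2 read ratios in each library for 4 of the 10 ratios, with points numbered by library, lines for group means, bars for the SD and an axis of its own for each panel. For Tcrg-V6 to Tcrg-V5 and for Trdc to Cd3e all SA points lie above all SE points, and the groups overlap for Tcrg-V5 to Trdc and for Trdv4 to Trdc.

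Among gamma variable reads summed over libraries, Tcrg-V5 led in both groups, with 45.2% of the summed SA reads (interval 41.4% to 49.0%) and 66.7% of the summed SE reads (62.1% to 71.2%). Tcrg-V6 followed in SA with 30.7% (27.2% to 34.3%) and held 6.24% in SE (4.15% to 8.94%). These intervals of summed reads also leave out variation between libraries. In SA library 4 alone Tcrg-V6 led, with 38.2% against 35.1% for Tcrg-V5. Trgv2, the partner of Tcrg-C2, had 118 reads in SA and 71 in SE, a log2 fold change of 0.73 ± 0.352 with overlapping groups (edgeR adjusted p = 0.468). Tcrg-V1 had 21 and 25 reads, Tcrg-V7, the intestinal segment, had 8 and 6, and Tcrg-V3 and Tcrg-C3 had 1 read each, both in SE. Trgv2 and Tcrg-V1, which symbols in the count table did not match, were added after their values were seen, and 24.6% of the 50-base stretches of Tcrg-V1 occur in Tcrg-V3 or Trgv2.

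The shares of the gamma constant reads overlapped between groups. Tcrg-C1 took 67.9% ± 2.64 of them in SA and 67.7% ± 1.9 in SE (SD over 5 libraries each), Tcrg-C2 18.8% ± 2.4 and 16.2% ± 3.8, and Tcrg-C4 13.2% ± 1.92 and 16.0% ± 3.66. Trdv4 dominated the delta variable reads, at 95.6% ± 2.34 in SA and 94.9% ± 3.45 in SE. The rest came from the alpha variable segments that can also join the delta chain, with 14 reads in SA and 8 in SE, Trdv5, with 12 and 13, Trdv2-2, with 4 and 2, and Trdv1, with 2 and 0. The share of Trdv4 may be too high, because reads without a unique alignment were not counted. Other genes share none of the 50-base stretches of Trdv4 or Trdv1, but 40.6% of those of Trdv5 and 52.6% of those of Trdv2-2. For the alpha variable segments this ran from 0% in Trav21-dv12 to 100% in Trav15d-2-dv6d-2. Trdc covers 47.3% of the exon bases of Trdv5 on the other strand. Without a stated strand setting, reads of Trdv5 and Trdc cannot be told apart there.

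The genes of the wider T cell receptor complex were below the threshold. None of the 11 CD3 complex and proximal signalling genes passed the edgeR threshold in either direction. At an unadjusted edgeR p under 0.05, 5 of them were higher in SA, where 4.54% of all tested genes were. These genes were led by Cd3d, a CD3 chain, with a log2 fold change of 0.77 ± 0.152 (edgeR adjusted p = 0.0951), Zap70, the receptor-proximal kinase, with 0.77 ± 0.167 (0.125), and Lat, the membrane adaptor, with 0.80 ± 0.18 (0.14). Cd247, the zeta chain, had 0.45 ± 0.102 (0.149). The list's median log2 fold change was 0.27, and without SE libraries 3, 4 and 5 it was 0.28, again with 0 genes past the threshold.

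Of 17 tested genes known from interleukin-17 type gamma-delta T cells, 3 rose in SA and none fell at the edgeR threshold, where 0.0591% of all tested genes rose, with a list median of 0.05 beside -0.01 for all tested genes. Without SE libraries 3, 4 and 5 the same 3 rose, where 0.153% of all tested genes did, and the list median was 0.38. The list was chosen with earlier results of these data known, so these counts are no test of it. Cd163l1, a scavenger receptor, rose by 2.54 ± 0.215 (edgeR adjusted p = 0.00102), Cxcr6, a receptor that retains lymphocytes in tissue, by 1.64 ± 0.155 (0.00178) and Blk, a Src-family kinase, by 1.92 ± 0.213 (0.00303). Il23r, the interleukin-23 receptor, had 1.86 ± 0.322 (edgeR adjusted p = 0.0726). The cytokine itself was near the floor, with 13 reads of Il17a in all SA libraries and 5 in all SE libraries.

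Among 18 tested genes of epidermal gamma-delta T cells and the keratinocyte Skint family that guides their development, none passed the edgeR threshold, and the median log2 fold change was 0.18. The smallest p-values belonged to Skint10, with 0.29 ± 0.102 (edgeR adjusted p = 0.341), and Tnfrsf9, a costimulatory receptor, with 0.61 ± 0.236 (0.383). Skint1, which selects the Tcrg-V5 cells in the thymus, had 0.06 ± 0.125 (edgeR adjusted p = 0.87). Without SE libraries 3, 4 and 5 none of 19 tested genes passed, with a median of 0.32.

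Other lymphocytes were checked by their own genes. None of the 6 tested alpha-beta T cell genes passed the edgeR threshold, and their summed level, 19.6 to 25.3 CPM in SA and 17.8 to 21.7 in SE with genes under the filter included, overlapped between groups. All 6 log2 fold changes were positive, with a median of 0.20. They were 1.10 ± 0.645 for Cd6, a T cell surface receptor with 83 reads in SA and 39 in SE (edgeR adjusted p = 0.545), 0.44 ± 0.26 for Trac (0.546), and 0.26 ± 0.191 and 0.14 ± 0.179 for Trbc1 and Trbc2, the beta constant segments (0.613 and 0.78). Natural killer and innate lymphoid cells can also transcribe Trdc. None of their 5 tested genes passed the threshold, with a median log2 fold change of -0.06 and summed levels of 113 to 153 CPM in SA and 96.1 to 143 in SE, most of it Gata3, which is also a keratinocyte gene. Ncr1, the defining natural killer receptor, had 27 reads in SA and 24 in SE. Without SE libraries 3, 4 and 5 neither list held a gene past the threshold, with medians of 0.12 for alpha-beta T cells and -0.03 for natural killer and innate lymphoid cells. The part of these cells in the Trdc difference was not tested.

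Some segments varied together among libraries of 1 group, and for others no such link was seen. Over the 10 libraries, with each group's mean removed from log2 CPM, the closest segment to Trdc among 13928 genes with a mean of at least 1 CPM was Tcrg-C2 (r = 0.87, rank 9). Tcrg-C2 was also the segment closest to Tcrg-V5 (r = 0.86, rank 30). Tcrg-C1 was that closest to Trdv4, but only at rank 289 (r = 0.73). Tcrg-V6 had an r between -0.16 and 0.07 with the 6 other members measured, and Tcrg-V4 did not pass the low-count filter. With 2, 3, 2, 5 and 15 reads of Tcrg-V6 in SE libraries 1 to 5, counting noise could hide a link. The 5 genes most like Trdc were Nog, Tapbpl, Pi4k2a, Hsd3b6 and Nod2 (r from 0.92 to 0.89), and those most like Tcrg-V6 were B4galnt4, Cnot7, Lrrc56, Dcp1a and Hnrnph1 (0.92 to 0.89). Usp4, Glce, Tcaf2, Klf8 and Acer3 were most like Tcrg-V5 (0.95 to 0.93), and Sh3d19, Phactr2, Trim56, Ptprg and BC067074 most like Trdv4 (0.96 to 0.92). These are descriptions over 10 points that share library depth and, in SE, the split between libraries 1 and 2 and libraries 3 to 5, and with this many genes some reach such values at low counts.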

How the data were processed

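Counts, whole-number reads per Ensembl gene, were deposited by the authors, and the submitters' processing notes name the build GRCm38 (mm10) and the tools HTSeq 0.6.1p1, STAR 2.4.2a and SAMtools. The sources used here do not give the annotation release, read length or strand setting. The 5 rows that name no gene were left out. Of each library, 23.1% to 26.7% of reads had no unique alignment, 3.06% to 6.59% fell on no feature and 3.1% to 3.4% were ambiguous. The first class can include reads of near-identical segments. A second table deposited by the authors, which per those notes came from DESeq2, gives group means as normalized counts (a signal), log2 fold changes, their standard errors and Wald statistics (a score), and p-values, raw and adjusted. It entered no test. It served for gene symbols and for the authors' adjusted p-values, log2 fold changes and group means that are given above.

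Counts were tested in R 4.3.3 with edgeR 4.0.16, using filterByExpr (minimum count 10), TMM scaling and the two-sided quasi-likelihood test of SA against SE on all 10 libraries, with Benjamini-Hochberg adjustment over 16909 genes and a threshold of 0.05. The prior count was 0.125. Standard errors of edgeR log2 fold changes were back-calculated, as the absolute log2 fold change divided by the square root of the quasi-likelihood F statistic. The edgeR fit was tested on simulated counts, with changes set only in genes at higher levels than Tcrg-V5, Tcrg-V6, Tcrg-C2 and Tcrg-C4. It was therefore no check of calls on such low-count segments. Alternatives were other filters, RLE scaling, DESeq2 1.42.0, limma 3.58.1 voom, a block, a sex-gene covariate and left-out libraries. Replicate pairs differed beyond sampling noise, with a chi-square per degree of freedom of 5.41 or more. Groups and replicate numbers came from sample titles.

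Coordinates, exon lengths and sequences came from GENCODE M21 on GRCm38. Identity was counted over aligned coding bases, and shared stretches were 50 bases long. Members and lists were chosen with earlier results of these data known. Named genes were the 8 members, other gamma and delta segments with a read, up to 4 genes of each T cell list by smallest p, and the 5 genes most like each of 4 segments. Cd3e, Skint1, Il17a, Ncr1, Gata3, Krt5, Rag1, Rag2, Dntt, Ptcra, Cd1d1 and Pdk4 were named outside this rule, after their values were seen. The counts of each list without SE libraries 3, 4 and 5 were also added after the data were seen.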

Additional observations from a re-analysis of the deposited data

Results flagged for a closer look

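In SE skin, Tcrg-V6 in library 5 stood at 0.686 CPM, far above the other 4 SE libraries, at 0.0806 to 0.229 CPM. In SA skin, the log2 read ratio of Trdc to Cd3e in library 3 was 1.17, against 0.935 to 1.002 in the other 4 SA libraries. Both met Dixon's 95% criterion for a single distant library (gap over range above 0.71) among 36 groups of values checked, and chance alone meets it in about 1 of 20 groups.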

How the results depend on the processing

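The threshold calls moved with the choice of test and libraries, and the direction of Tcrg-V6, Trdc, Trdv4, Tcrg-C1, Tcrg-C2 and Tcrg-C4 did not turn under any alternative run. The log2 fold change ranged from 2.69 to 4.07 for Tcrg-V6 and from 0.68 to 0.86 for Trdc. Called members, 2 in the report, numbered 5 with DESeq2, 1 (Tcrg-V6) with the sex-gene covariate and between 0 and 3 with single libraries left out. Over all genes the 13 calls became 341 with DESeq2, 41 without SE libraries 3, 4 and 5, and between 7 and 225 with single libraries left out. The 225 came without SE library 1 and 152 without SE library 2. The cause was not tested. Of the 10 ratios, the 4 called fell to 0 with medians in place of means and to 0 without SE libraries 3, 4 and 5, where 21 splits allow no p under 0.0952. They ranged from 0 to 4 with single libraries left out, where the smallest p of 0.0159 passes the adjustment only when 4 or more ratios reach it. With the replicate number as a block, 0 members were called (Tcrg-V6 3.08, edgeR adjusted p = 0.0914, and Trdc 0.74, edgeR adjusted p = 0.267). Over all tested genes, SA and SE libraries of equal number had correlations of deviations from their group means of -0.28 to 0.05. The split among SE libraries could hide a pairing there, so whether equal numbers pair the libraries was not settled. Depth limits Tcrg-V4 and the SE level of Tcrg-V6, which rest on few reads.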

Other observations

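Rearrangement leaves few whole reads on the short joining and diversity segments. The 8 of them held 21 reads in SA and 24 in SE. Trgj4, the joining segment of Tcrg-C4, had 12 and 9, Trgj1, that of Tcrg-C1, had 2 and 9, and Trgj2, that of Tcrg-C2, had 5 and 1. Trgj3, Trdd1, Trdd2, Trdv2-1 and Trdv3 had no read in any library. The 10 annotated alpha variable segments that can also join the delta chain held 14 reads in SA and 8 in SE. The Trgj and shared alpha-delta segments were added after their values were seen.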
